A study of Mus musculus with 12 samples.

Results

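The effect of 7 h of p38-MAPK inhibition (p38-MAPKi) on the mRNA of early mouse blastocysts was measured in 4 of the 12 mRNA-Seq libraries of the series, 2 p38-MAPKi libraries and 2 control libraries at E3.5 + 7 h. Of the 34245 genes in the table, the 10940 that reached 1 RPKM (a read count divided by transcript length in kilobases and by library size) in at least 2 of these 4 libraries were tested. The embryos came from superovulated F1 hybrid females (C57Bl6 x CBA/W) mated with F1 males. They were collected at the 2-cell stage and grown in KSOM medium with amino acids in all groups. At embryonic day (E) 3.5, 30 embryos a library were transferred to the p38 inhibitor SB220025 at 20 µM or to its solvent, dimethyl sulfoxide (DMSO), at 0.2 to 0.5% by volume. The embryos carried no engineered allele. Each library therefore averaged whole blastocysts of 3 lineages, and 1 inhibitor at 1 dose stood for the loss of p38 activity. The labels did not say whether the 2 pools of a group came from separate collections of embryos, so the p-values measured the spread between pools. The remaining 8 libraries, taken at E3.5 + 4 h and + 10 h, were used for values side by side, for tests of the difference between times and in 1 alternative fit of all 12 libraries.

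The p38-MAPKs are serine/threonine kinases that are switched on by the dual-specificity kinases MAP2K3 and MAP2K6 in response to stress, cytokines and growth factors. They pass the signal to downstream kinases such as MK2 (Mapkapk2), to transcription factors and to proteins that bind AU-rich mRNA. A blastocyst holds an outer epithelium, the trophectoderm (TE), which pumps fluid into the cavity, and an inner cell mass (ICM) whose cells become epiblast (EPI) or primitive endoderm (PrE). In such embryos p38 activity is known for its part in TE function and in the formation of PrE, beside the FGF-ERK pathway, while Hippo signaling and its YAP and TEAD partners set TE against ICM.

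The 4 libraries were not equally deep. The control libraries held 21112831 and 23352633 mapped reads, as the RPKM scaling implies, p38-MAPKi replicate 1 held 11242313 and p38-MAPKi replicate 2 held 17435561, while the 10 libraries other than the p38-MAPKi pair at + 7 h ranged from 17097676 to 24457312. At least 1 read fell on 14000 genes in p38-MAPKi replicate 1 and on 16342 in replicate 2, against 16750 to 17644 elsewhere. Low read numbers were missing from p38-MAPKi replicate 1: exactly 1 read was seen for 98 genes there, for 361 in replicate 2 and for 462 to 856 in the other 10 libraries, whereas the number of genes with exactly 10 reads, 159 and 168, lay within the 152 to 185 of the others. In a gene of 1 kb, 10 reads stood for 0.889 RPKM in that library. Among the tested genes, 231 had fewer than 10 reads in p38-MAPKi replicate 1, against 95 to 116 in the other 3 libraries at + 7 h. The log2 values of the tested genes correlated with r = 0.977 between the control libraries and with r = 0.946 between the p38-MAPKi libraries, over genes, and genes are no independent replicates. The calls made without p38-MAPKi replicate 1 are therefore counted below.

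**Figure D1:**
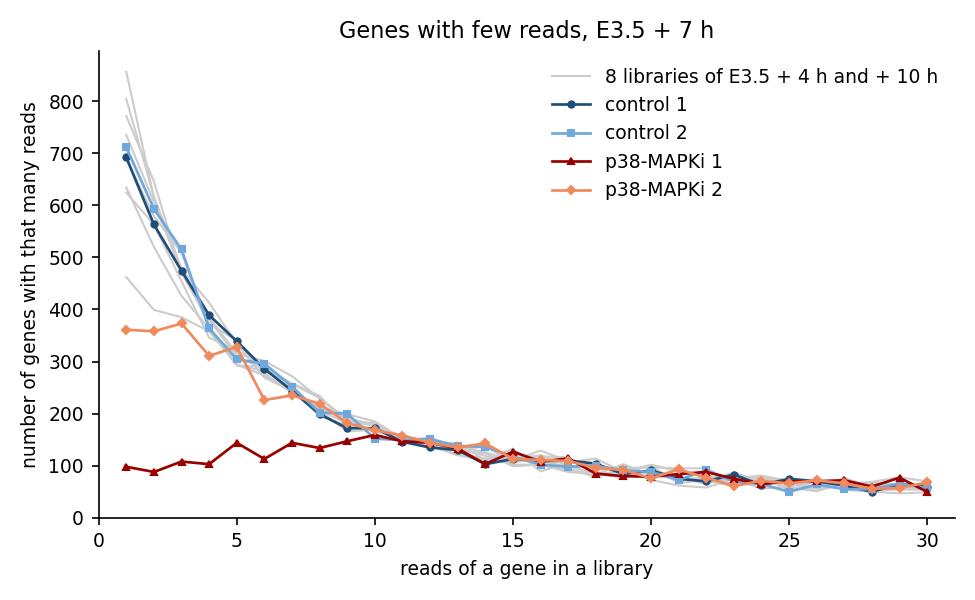
Number of genes (y axis) with each small number of reads (x axis) in the libraries at E3.5 + 7 h and, as grey lines, in the 8 libraries at + 4 h and + 10 h. The curve of p38-MAPKi replicate 1 peaks at 10 reads, with 159 genes, and falls to 98 genes at 1 read, while p38-MAPKi replicate 2 peaks at 3 reads, with 373 genes, and the other libraries peak at 1 read.

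After 7 h of p38-MAPKi, 102 genes were higher and 131 genes lower than in the control embryos (limma on the log2 RPKM, Benjamini-Hochberg adjusted p under 0.05). These were 0.932% and 1.2% of the 10940 tested genes, and 2.13% together. The smallest adjusted p was 0.0328, and 3102 genes had an unadjusted p under 0.05. All 233 called genes had p38-MAPKi values that did not overlap with the control values, but so did 23.0% of all tested genes on the higher side and 38.7% on the lower side. The calls were lost, with 0 genes past the threshold, when the length trend was removed (2457 genes at unadjusted p under 0.05), when each library was set to a common median (3053 genes), when limma was run without its intensity trend (2629 genes), with no filter on low values (3618 genes), when the libraries were thinned to 1 depth (2818 genes) and without control replicate 2 (1150 genes). After quantile normalization 7 genes were higher and 5 lower, and voom on the recovered reads called 539 higher and 1190 lower. Without p38-MAPKi replicate 1, 221 genes were higher and 364 lower, and 220 of the 233 calls were among them. Of the genes called higher, 5 were below 1 RPKM in both controls, and of those called lower, 3 were below it in both p38-MAPKi libraries, so these 8 passed the filter only through the group in which they were high. The direction of the called genes was the same in every setting in which they were tested. The median gene lay at -0.14 on the log2 scale, and at 0.05 when the libraries were set to a common median, an upward shift shared by every gene, so the values below are relative to all mapped reads and not to a fixed amount of RNA per embryo. No spike-in RNA was used.

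Transcript length moved with the treatment. In the shortest 10% of the genes, with a median length of 883 bases, p38-MAPKi replicates 1 and 2 stood at median log2 differences of 0.57 and 0.42 from the control mean, and in the longest 10%, with a median of 11244 bases, at -0.62 and -0.44. The control libraries also differed along this axis, with control 2 minus control 1 at -0.33 in the shortest and 0.23 in the longest 10%. At + 4 h the same medians of p38-MAPKi minus control were 0.23 and -0.18, and at + 10 h they were -0.03 and 0.01. Of the 102 genes called higher, 49 were in the shortest 10% and 29 in the 10% above it, and of the 131 called lower, 23, 28 and 31 were in the 3 longest groups of this size. After the trend of log2 RPKM with length was removed from each library, the median log2 difference of the genes called higher went from 1.17 to 1.03 and that of the genes called lower from -1.13 to -0.80, and none changed sign. The length-removed value is given below beside many of the lists, and the part of length in the calls was not tested.

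**Figure D2:**
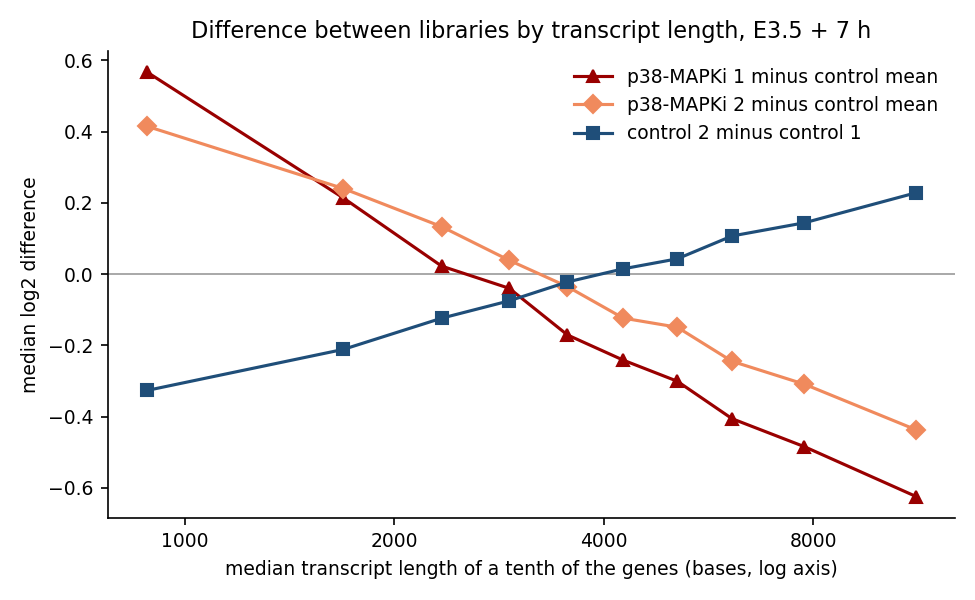
Median log2 difference (y axis) of the tested genes in 10 groups of equal size by transcript length (x axis, bases, log scale) for each p38-MAPKi library against the control mean and for control 2 against control 1 at E3.5 + 7 h. Both p38-MAPKi libraries fall from above 0 in the shortest group (0.57 and 0.42) to below 0 in the longest (-0.62 and -0.44). The control libraries also differ along length, from -0.33 to 0.23, and the sign of their curve is set only by the order of subtraction.

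Beyond ribosome and respiration, the lists held 19 of the genes called higher and 38 of the genes called lower, the lists of ribosome and respiration held 17 higher and 0 lower, and 66 higher and 93 lower genes stood in no list. Each list below is given by its number of tested genes and by the calls in each direction, to be read against 0.932% and 1.2%. Counts of members above or below both controls are to be read against 23.0% and 38.7% of all tested genes. In the shortest 10% of the genes 53.5% lay above both controls, and in the longest 10% 74.8% lay below both. Its median log2 difference is to be read against -0.14 for all tested genes. With the length trend removed, the median of all tested genes was 0.01. A median of the tested members leaves out those below the filter, and no list was tested as a set.

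**Figure D3:**
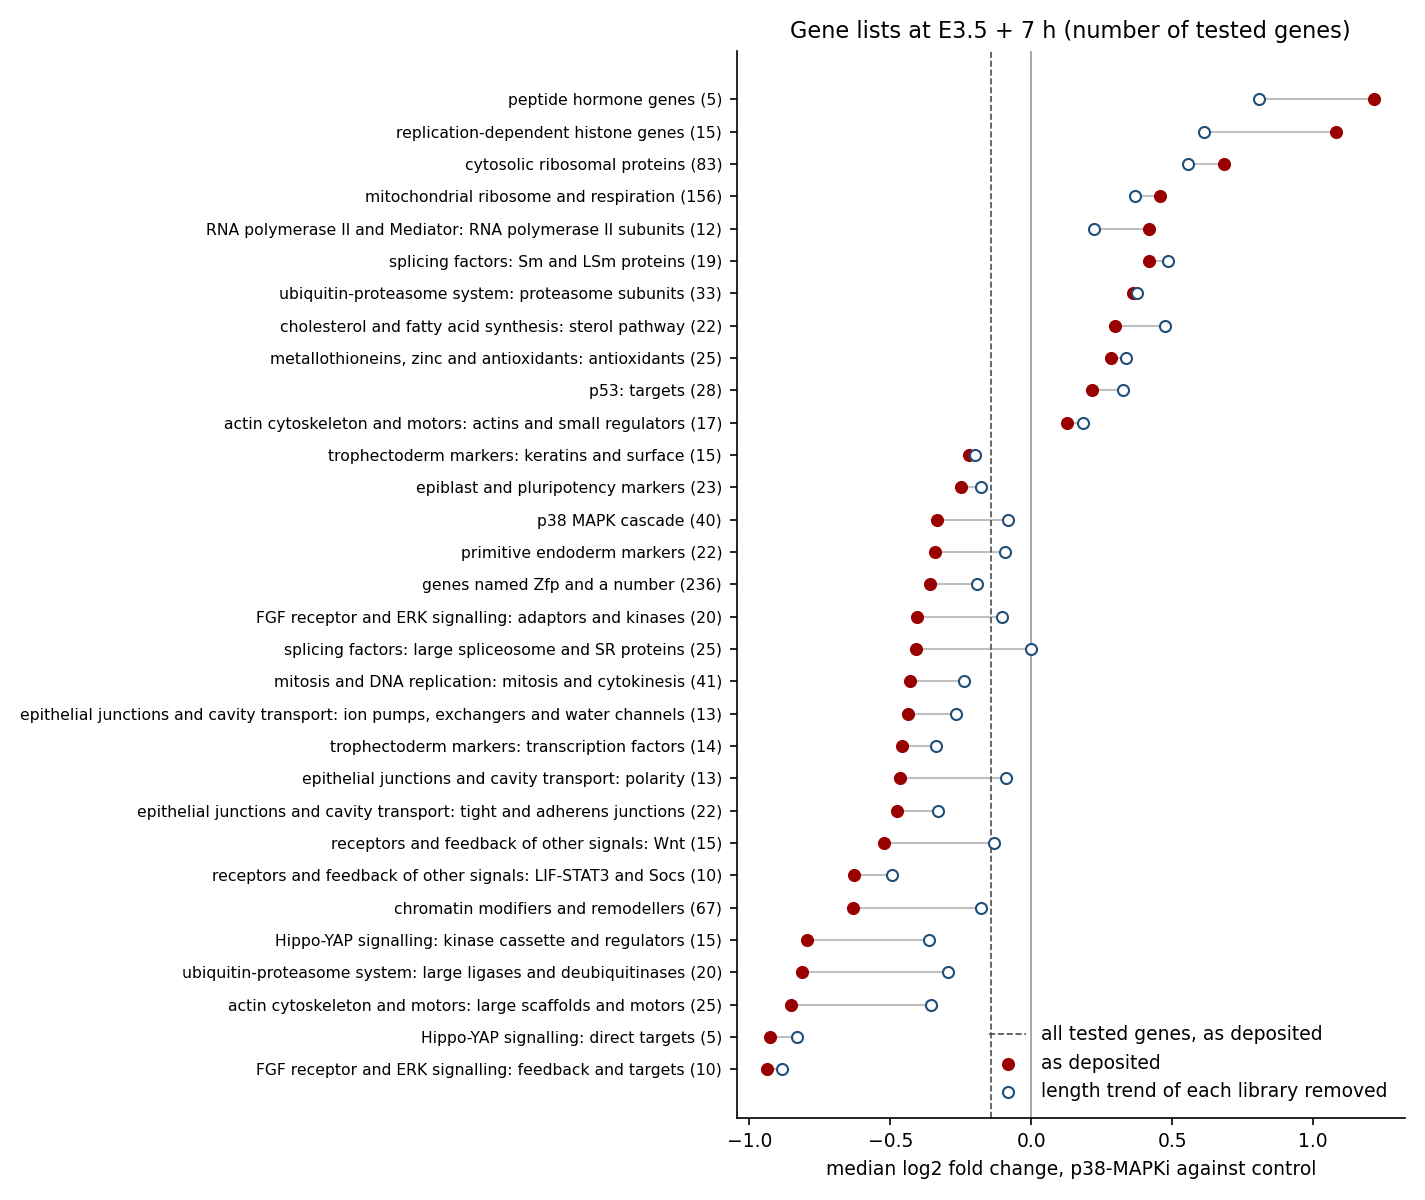
Median log2 difference of p38-MAPKi against control at E3.5 + 7 h (x axis) for gene groups (y axis), as measured and with the length trend removed, with the number of tested genes in parentheses. The groups of YAP targets and of ERK feedback genes stand at -0.93 and -0.94 and at -0.83 and -0.89 with the trend removed, whereas those of long genes, such as the large scaffolds and motors (-0.85 and -0.36), move toward 0. Of the 5 YAP targets and the 10 ERK feedback genes, 1 and 2 passed the filter only through the controls.

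Several components and targets of the Hippo pathway fell. Of 36 listed genes 26 were tested, 5 fell, none rose, and the libraries did not overlap for 21 on the lower and 1 on the higher side. The median of the 26 was -0.77, and -0.41 with the length trend removed. Amotl2, an angiomotin that holds YAP at cell junctions and is itself a YAP target, stood at 25.7 and 24.7 RPKM in the control libraries and at 9.07 and 7.11 RPKM in the p38-MAPKi libraries. It was the most strongly lowered of the 5 (log2 difference -1.65 ± 0.20, SE, adjusted p = 0.0328), and was at -1.33 with the length trend removed and at -1.83 without p38-MAPKi replicate 1. Ctgf, a secreted matricellular protein and standard YAP-TEAD target, stood at 7.04 and 9.19 RPKM in the control and at 2.89 and 3.87 RPKM in the p38-MAPKi embryos (-1.27 ± 0.26, adjusted p = 0.0479; -1.24 with the length trend removed). The groups did not overlap for either gene, and the replicates of Amotl2 were close to each other. The kinase Stk3 (MST2), which activates the Lats kinases, went from 8.59 and 8.32 to 2.03 and 4.02 RPKM (-1.56 ± 0.32, adjusted p = 0.0487), so that the p38-MAPKi replicates differed from each other by more than the controls did. The transcription factor Tead1 (-1.14 ± 0.23, adjusted p = 0.0461) and Vgll4, a repressor that competes with YAP for TEAD (-1.17 ± 0.24, adjusted p = 0.0487), also fell. The coactivators themselves did not pass, with Yap1 at 26.5 and 32.3 against 29.1 and 30.4 RPKM (0.02, adjusted p = 0.943) and Wwtr1 (TAZ) at 26.4 and 26.1 against 29.6 and 27.7 RPKM (0.13, adjusted p = 0.639). Lats2, at 4.39 and 5.69 against 2.87 and 2.07 RPKM, did not pass (-1.03, adjusted p = 0.0715), nor did the target Cyr61, at 8.19 and 8.87 against 3.52 and 7.39 RPKM (-0.74, adjusted p = 0.175). Over the 5 of 12 direct targets that were tested, the median log2 difference was -0.93 and was -0.83 with the length trend removed, whereas over the 15 tested genes of the kinase cassette it went from -0.79 to -0.36. Of the 5 targets, 1 was below 1 RPKM in both p38-MAPKi libraries and passed the filter only through the controls.

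The promoters of Amotl2 and Cyr61 are shown because TEAD factors bind a short core that can be looked for in them. In the 250 bases before the RefSeq start site (GRCm38.p6), the core CATTCC or its reverse complement GGAATG was present in 12.6% of 32851 mouse promoters. It occurred once in Amotl2, at position -65 from the start (chr9:102717554-102717803, plus strand), and once in Cyr61 (Ccn1 in RefSeq), at position -103 (chr3:145649986-145650235, minus strand). Of the other promoters searched, those of Ajuba, Ankrd1, Axl and Crim1 also held it, and those of Lats2, Myof, F3, Nt5e and Tgfb2 did not, while a promoter of Ctgf was not used here. The capitals mark the core, and a match is a description of the letters only.
Amotl2: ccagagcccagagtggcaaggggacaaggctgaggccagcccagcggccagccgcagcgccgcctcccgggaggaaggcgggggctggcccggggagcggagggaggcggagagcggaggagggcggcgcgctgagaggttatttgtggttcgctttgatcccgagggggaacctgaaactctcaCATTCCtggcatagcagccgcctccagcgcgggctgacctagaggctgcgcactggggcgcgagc
Cyr61: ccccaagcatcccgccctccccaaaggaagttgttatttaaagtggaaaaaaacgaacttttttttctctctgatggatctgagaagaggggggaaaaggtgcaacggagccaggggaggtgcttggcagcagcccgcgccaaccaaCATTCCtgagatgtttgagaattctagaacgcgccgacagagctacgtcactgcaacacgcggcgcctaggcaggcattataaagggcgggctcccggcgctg

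In the FGF-ERK pathway, adaptors and a feedback phosphatase fell. Of 48 listed genes 37 were tested, 3 fell and none rose, with a median of -0.48, or -0.24 with the length trend removed. The libraries did not overlap for 25 on the lower and 4 on the higher side. Dusp4, a phosphatase that ERK induces and that acts on ERK in turn, stood at 12.5 and 15.3 RPKM in the control and at 5.00 and 7.54 RPKM in the p38-MAPKi libraries (-1.17 ± 0.25, adjusted p = 0.0487; -1.16 with the length trend removed). Frs2, the docking protein of FGF receptors, went from 20.9 and 23.3 to 9.23 and 9.94 RPKM (-1.20 ± 0.18, adjusted p = 0.0456; -0.77 with the length trend removed). Sos1, the exchange factor that activates Ras, went from 8.59 and 11.5 to 3.91 and 4.59 RPKM (-1.23 ± 0.24, adjusted p = 0.0461; -0.79). Each of these genes was separated between the groups. Among the 10 tested feedback genes and targets, of 16 listed, 9 lay below both controls in both p38-MAPKi libraries. Of the 10, 2 were below 1 RPKM in both p38-MAPKi libraries and passed the filter only through the controls, so their fall is no support. The 10 genes had a median length of 2823 bases, below that of all tested genes, and their median of -0.94 became -0.89 with the length trend removed. In p38-MAPKi replicates 1 and 2 it was -1.01 and -0.67. Members that did not pass were Myc at 5.16 and 5.20 against 1.80 and 2.41 RPKM (-1.32 ± 0.28, adjusted p = 0.0503), the ETS factor Etv5 at 7.21 and 7.24 against 2.10 and 4.58 RPKM (-1.22 ± 0.35, adjusted p = 0.0718) and the ERK phosphatase Dusp6 at 4.08 and 3.94 against 2.22 and 2.22 RPKM (-0.86 ± 0.28, adjusted p = 0.0943). The receptors Fgfr1 (-0.77, adjusted p = 0.0636) and Fgfr2 (-0.92, adjusted p = 0.0544) were at -0.30 and -0.43 with the length trend removed, and no receptor was called. Of the 4 listed ligands 1 was tested and it did not pass. In the other direction, Hras lay above both controls, at 27.2 and 24.1 against 48.5 and 40.9 RPKM. It did not pass either (0.80 ± 0.18, adjusted p = 0.0522; 0.93 with the length trend removed).

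No gene of the p38 cascade itself was called, with 40 of 44 tested and a median of -0.33, or -0.08 with the length trend removed. Mapk14, which encodes p38α, the main target of the inhibitor, stood at 25.3 and 26.5 RPKM in the control and at 18.9 and 24.7 RPKM in the p38-MAPKi libraries (-0.26, adjusted p = 0.392). Mapk13, which encodes p38δ, stood at 12.2 and 10.4 against 15 and 20.0 RPKM (0.62, adjusted p = 0.101), and the substrate kinase gene Mapkapk2 at 17.0 and 14.4 against 18.5 and 15.6 RPKM (0.12, adjusted p = 0.708). These mRNA levels do not measure the activity of the kinases. Dusp1, a phosphatase of p38 and JNK, was below both controls at 4.32 and 4.43 against 1.58 and 3.25 RPKM but did not pass (-0.95, adjusted p = 0.136).

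Targets of p53 contained 2 genes that rose and none that fell among 28 tested, with a median of 0.21 and of 0.33 with the length trend removed. Phlda3, a pleckstrin-homology protein that restrains Akt, stood at 86.1 and 61.3 RPKM in the control and at 161 and 145 RPKM in the p38-MAPKi libraries (1.07 ± 0.20, adjusted p = 0.0461). The polo-like kinase Plk2 stood at 11.3 and 12.1 against 20.1 and 22.4 RPKM (0.86 ± 0.18, adjusted p = 0.0496), and its length-removed difference was larger, at 1.06. Neither gene overlapped between the groups. Gdf15, a stress-induced cytokine, was at 0.742 and 1.11 against 2.35 and 3.16 RPKM (1.59 ± 0.44, adjusted p = 0.0684), and the antiproliferative gene Btg2 at 21.2 and 21.9 against 38.1 and 36.2 RPKM (0.78 ± 0.17, adjusted p = 0.0503). The cell cycle inhibitor Cdkn1a, the best known p53 target, was at 88.5 and 83.7 against 118 and 106 RPKM (0.38, adjusted p = 0.176). Of the 8 regulators of p53, which include Trp53 itself (-0.40, adjusted p = 0.177), none passed, and their median was -0.42, or -0.14 with the length trend removed. The immediate early genes, which growth factors and stress switch on without new protein, held 1 call among 24 tested, with a median of 0.06. This was Ier2, at 37.5 and 38.5 against 86.6 and 73.0 RPKM (1.06 ± 0.17, adjusted p = 0.0456). Dusp2, a phosphatase induced by MAPK signals, was at 0.236 and 0.321 against 1.24 and 1.46 RPKM and passed the filter only through the p38-MAPKi libraries.

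Of the metallothionein genes, Mt1, Mt2 and Mt4 rose. These small cysteine-rich proteins bind zinc and copper and are induced through the metal-sensing factor MTF1, by glucocorticoids and by oxidative stress. Mt1 stood at 147 and 122 RPKM in the control and at 390 and 364 RPKM in the p38-MAPKi libraries (1.49 ± 0.18, adjusted p = 0.0328; 1.25 with the length trend removed). Mt2 stood at 352 and 273 against 731 and 758 RPKM (1.26 ± 0.20, adjusted p = 0.0456; 0.83). Mt4, the form typical of stratified epithelium, was named through its size of change and not through the list, at 5.24 and 3.01 against 23.5 and 14.4 RPKM (2.21 ± 0.32, adjusted p = 0.0456; 1.71). In each of the 3 genes both p38-MAPKi libraries exceeded both control libraries at least by the span between the controls. Over the 11 tested genes of the list of metallothioneins and zinc, the median was -0.27, or 0.07 with the length trend removed. Of the 11, 6 lay below both controls and 2 above, beside 38.7% and 23.0% of all tested genes. Apart from Mt1 and Mt2 its 9 tested genes were not called, among them the zinc exporter Slc30a1, another MTF1 target, at 5.58 and 9.19 against 8.14 and 10.7 RPKM (0.38, adjusted p = 0.376), and Mtf1 itself (-0.51, adjusted p = 0.158). Mt1, Mt2 and Mt4 are neighbors on chromosome 8, and their transcripts are short, at 1246, 588 and 398 bases.

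The promoters of the 3 metallothionein genes are shown because a loose form of the metal response core can be counted in them. This pattern, TGCNCNC or its reverse complement GNGNGCA, takes any base at each N, so a match need not be the core that MTF1 binds. It occurred in 44.4% of the 32851 promoters of 250 bases, and 5 or more matches occurred in 113 of them, or 0.344%. Mt2 (chr8:94172368-94172617, plus strand) held 5 matches, at positions -223, -178, -128, -113 and -50 from the start. Mt4 (chr8:94136954-94137203, plus strand) held 4, at -145, -138, -124 and -91, of which the first pair abut. Mt1 (chr8:94178839-94179088, plus strand) held 1, at -23 in this annotation. The capitals mark the matches.
Mt1: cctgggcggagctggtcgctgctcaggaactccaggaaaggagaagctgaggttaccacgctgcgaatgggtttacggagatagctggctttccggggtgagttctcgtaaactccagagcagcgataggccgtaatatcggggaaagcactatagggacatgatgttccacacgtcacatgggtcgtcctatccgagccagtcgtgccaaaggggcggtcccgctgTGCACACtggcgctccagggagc
Mt2: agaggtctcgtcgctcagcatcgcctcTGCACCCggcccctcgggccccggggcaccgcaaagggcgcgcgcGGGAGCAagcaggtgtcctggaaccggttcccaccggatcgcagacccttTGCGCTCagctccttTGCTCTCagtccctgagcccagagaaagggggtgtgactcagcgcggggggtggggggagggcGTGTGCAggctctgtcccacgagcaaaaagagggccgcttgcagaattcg
Mt4: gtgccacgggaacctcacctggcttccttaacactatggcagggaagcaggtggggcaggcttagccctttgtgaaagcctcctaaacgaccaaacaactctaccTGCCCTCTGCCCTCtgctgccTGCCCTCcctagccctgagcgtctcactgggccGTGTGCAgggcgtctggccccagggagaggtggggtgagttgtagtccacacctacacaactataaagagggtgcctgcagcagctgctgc

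Among the genes of glucose sensing, 2 rose. Txnip, an arrestin-domain protein that limits glucose uptake and binds thioredoxin, stood at 12.4 and 11 RPKM in the control and at 24.4 and 21.6 RPKM in the p38-MAPKi libraries (0.97 ± 0.18, adjusted p = 0.0461; 1.03 with the length trend removed). Mlxipl (ChREBP), the glucose-responsive factor of lipogenic genes, stood at 1.27 and 1.31 against 4.13 and 4.94 RPKM (1.81 ± 0.32, adjusted p = 0.0456; 2.08). Both are longer than most genes that rose, at 3123 and 5538 bases. Arrdc4, the paralog of Txnip, was at 3.25 and 2.93 against 4.73 and 5.15 RPKM and did not pass (0.68, adjusted p = 0.123). Of the 9 tested genes of that group 2 rose and none fell, and the median was -0.10, or -0.05 with the length trend removed. Of the 18 tested glucose transporters and glycolytic enzymes none was called, with a median of -0.19, or 0.05 with the length trend removed. The E-box CACGTG, part of the element that ChREBP and its partner bind, was present in 6.02% of promoters, at position -193 from the start of Arrdc4 and at -98 from 1 of 2 starts of Mlxipl, and these letters did not occur in the same window of Txnip.

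Of 19 hormone precursor genes 5 were tested and 3 of them rose, and the median of the 5 was 1.22, or 0.81 with the length trend removed. Oxt, the oxytocin precursor, stood at 10.4 and 9.33 RPKM in the control and at 29.5 and 29.8 RPKM in the p38-MAPKi libraries (1.59 ± 0.18, adjusted p = 0.0328; 1.14 with the length trend removed). Pomc, the precursor of corticotropin, stood at 2.05 and 2.60 against 8.57 and 6.79 RPKM (1.73 ± 0.26, adjusted p = 0.0456; 1.49). Sct, the secretin precursor, stood at 8.96 and 6.90 against 19.6 and 17.1 RPKM (1.22 ± 0.21, adjusted p = 0.0456; 0.81). In all 3 the groups were separated. Agrp, a melanocortin antagonist (0.78, adjusted p = 0.0715), and the natriuretic peptide gene Nppb (0.77, adjusted p = 0.337) did not pass. The other 14 genes stayed below the filter.

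**Figure D4:**
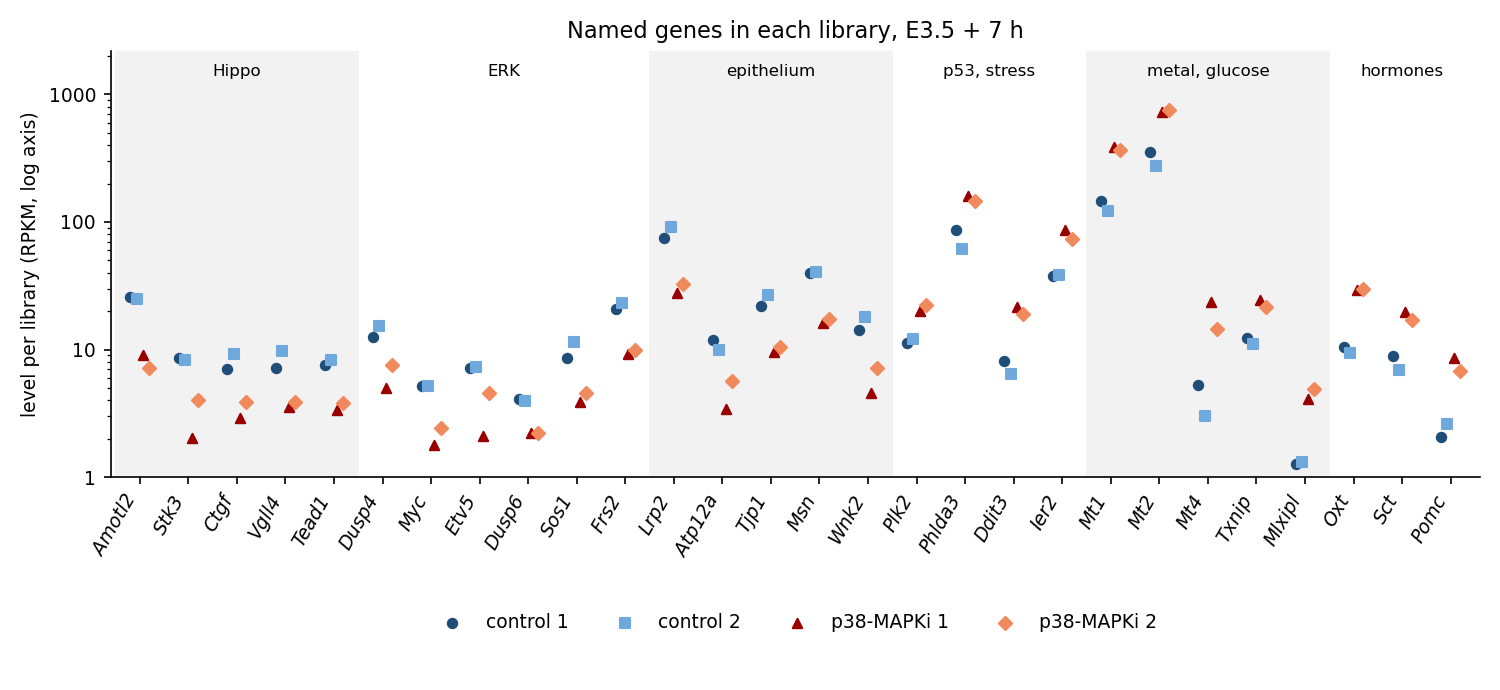
RPKM (y axis, log scale) of selected genes in each of the 4 libraries at E3.5 + 7 h, control and p38-MAPKi, with 1 point a library. Both p38-MAPKi points lie below both control points for the lowered genes, such as Amotl2 (25.7 and 24.7 against 9.07 and 7.11), and above them for the raised genes, such as Mt1 (147 and 122 against 390 and 364).

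Markers of the PrE gave calls in both directions. Lrp2 (megalin), an endocytic receptor of PrE and TE, stood at 74.7 and 91.0 RPKM in the control and at 27.6 and 32.5 RPKM in the p38-MAPKi libraries (-1.46 ± 0.18, adjusted p = 0.0369; -0.84 with the length trend removed). Its clathrin adaptor Dab2 stood at 57.5 and 47.3 against 24.0 and 28.3 RPKM (-1.0 ± 0.19, adjusted p = 0.0461; -0.63). Cited1, a transcriptional coregulator on that list, rose from 24.6 and 27.4 to 45.1 and 47.2 RPKM (0.83 ± 0.17, adjusted p = 0.0481; 0.69). The 3 calls stood among 22 tested genes with a median of -0.34, or -0.09 with the length trend removed. None of the 4 tested PrE transcription factors was called, with Gata6 at 101 and 129 against 80.9 and 85.0 RPKM (-0.47, adjusted p = 0.143). The pluripotency genes held no call among 23 tested, with a median of -0.25, or -0.18 with the length trend removed. Nanog was at 118 and 123 against 123 and 105 RPKM (-0.09, adjusted p = 0.759), Pou5f1 at 412 and 463 against 503 and 487 RPKM (0.18, adjusted p = 0.534) and Sox2 at 42.3 and 37.3 against 31 and 30.5 RPKM (-0.37, adjusted p = 0.192). Because each library averaged whole embryos, fewer cells of a type and less RNA per cell could not be told apart.

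The TE transcription factors held no call among 14 tested, with a median of -0.46 and of -0.34 with the length trend removed, and for 11 of the 14 both p38-MAPKi libraries lay below both controls. Cdx2, which specifies TE, stood at 237 and 190 against 158 and 144 RPKM (-0.49, adjusted p = 0.127), and Gata3 at 110 and 90.1 against 67.2 and 57.2 RPKM (-0.68, adjusted p = 0.0652). Among the 15 tested keratins and surface genes of the TE, 1 rose and 2 fell, with a median of -0.22. Those that fell were Lrp2 (above) and the pump gene Atp12a (below), and the riser was Rhox5. For the TE keratin Krt8 the groups overlapped, at 676 and 474 against 616 and 584 RPKM (0.08, adjusted p = 0.821). Rhox5, an X-linked homeobox gene, had controls that differed, at 17.8 and 8.29 against 30.7 and 45.3 RPKM (1.62 ± 0.34, adjusted p = 0.0487).

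Genes of the epithelium that seals and fills the cavity were called lower in 7 of 48 cases and higher in none, with a median of -0.47, or -0.32 with the length trend removed. At the tight junctions, the scaffold Tjp1 (ZO-1) stood at 22.1 and 26.9 RPKM in the control and at 9.59 and 10.6 RPKM in the p38-MAPKi libraries (-1.28 ± 0.19, adjusted p = 0.0456; -0.88 with the length trend removed). The cingulins Cgn, at 21.8 and 20.9 against 10.3 and 11 RPKM (-1.0 ± 0.18, adjusted p = 0.0461), and Cgnl1, at 6.20 and 7.08 against 2.45 and 3.08 RPKM (-1.27 ± 0.25, adjusted p = 0.0473), which join junctional scaffolds to actomyosin, fell as well. These 3 genes stood at between 0.412 and 0.499 of their control level. The transmembrane claudin Cldn4 was at 782 and 630 against 649 and 618 RPKM (-0.15, adjusted p = 0.64), Cldn6 was at -0.29 (adjusted p = 0.405), Cldn3 was above both controls at 11.2 and 8.47 against 25.1 and 16.5 RPKM (1.06, adjusted p = 0.0538) and E-cadherin, Cdh1, at 174 and 171 against 132 and 128 RPKM (-0.41, adjusted p = 0.151). In the apical domain, moesin (Msn), which ties actin to the membrane, fell from 39.5 and 40.7 to 16.2 and 17.5 RPKM (-1.25 ± 0.17, adjusted p = 0.0391; -0.93). Of the transport genes, the proton-potassium pump gene Atp12a fell from 11.9 and 9.97 to 3.43 and 5.64 RPKM (-1.31 ± 0.27, adjusted p = 0.0487; -1.15) and the kinase Wnk2, a regulator of ion cotransporters, from 14.1 and 18.1 to 4.54 and 7.22 RPKM (-1.48 ± 0.26, adjusted p = 0.0456; -1.06). The sodium pump subunit Atp1b1, at 94.2 and 68.2 against 49.1 and 48.9 RPKM, did not pass (-0.71, adjusted p = 0.0678), nor did the water channel Aqp3 (-0.18, adjusted p = 0.5).

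Several groups of very long genes had low medians, which moved toward 0 once the length trend was removed. Of the 25 large cytoskeletal scaffolds and motors, with a median length of 10122 bases, 4 fell and all 25 lay below both controls, and the median of -0.85 became -0.36. Myh10, the heavy chain of non-muscle myosin IIB, stood at 82.1 and 93.1 against 42.2 and 41.7 RPKM (-1.06 ± 0.17, adjusted p = 0.0456; -0.57), and Sptbn1 (-1.07), Ahnak (-1.12) and Myo1c (-1.01) were the others. The 17 actins and small actin regulators held no call and had a median of 0.13, with Actb at 1457 and 1356 against 1289 and 1324 RPKM. Of the 20 tested large ubiquitin ligases and deubiquitinases, with a median length of 15613 bases, 6 fell, and their median went from -0.81 to -0.30. Usp9x, a deubiquitinase, stood at 8.96 and 13.3 against 4.63 and 4.23 RPKM (-1.30 ± 0.25, adjusted p = 0.0461; -0.71), and among the others Birc6, Ubr3, Ubr4 and Trip12 lay between -1.22 and -0.85. Of the 67 tested chromatin modifiers, with a median length of 9180 bases, none was called and 54 lay below both controls. In the longest 10% of all tested genes 74.8% did so. The median of the 67 went from -0.63 to -0.18. Kmt2d, a histone H3 lysine 4 methyltransferase, was the lowest of them at 5.88 and 9.83 against 2.59 and 3.69 RPKM (-1.30, adjusted p = 0.0551; -0.63). Without p38-MAPKi replicate 1, the calls in these groups were 7, 8 and 6, all lower.

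Several groups with a median length below the 3899.5 bases of all tested genes had the opposite sign. The median length was 2618 bases for Sm and LSm proteins and 2649 for proteasome subunits, whose median differences did not shrink with the length trend removed. It was 1330 bases for RNA polymerase II, whose median went from 0.42 to 0.22. Of the 19 genes of Sm and LSm proteins, the rings at the core of the spliceosomal RNAs, 3 rose and 15 lay above both controls, and their median of 0.42 was 0.49 with the length trend removed. Snrpg stood at 43.2 and 35.4 against 101 and 74.9 RPKM (1.15 ± 0.20, adjusted p = 0.0456), with Snrpf at 1.21 and Lsm7 at 1.26. Of the 25 large spliceosome and SR proteins 1 fell, the long scaffold Srrm2 (-1.15; -0.65 with the length trend removed), and their median went from -0.41 to 0.00. The 33 proteasome subunits held no call, with 24 above both controls and a median of 0.36, which was 0.37 with the trend removed. Among the 12 subunits of RNA polymerase II, with a median of 0.42, 1 rose, the small subunit Polr2l, at 3.04 and 2.91 against 8.46 and 6.05 RPKM (1.27 ± 0.26, adjusted p = 0.0476). The large subunit Polr2a was at 50.4 and 67.2 against 24.2 and 33.7 RPKM (-1.03, adjusted p = 0.0503). The cytosolic ribosomal proteins, of which 83 of 84 were tested and 10 rose, had a median of 0.68, and the 156 tested genes of the mitochondrial ribosome and respiration, of which 7 rose, one of 0.46. With the trend removed these medians were 0.56 and 0.37. The replication-dependent histone genes, whose mRNAs normally lack a poly(A) tail, had 15 of 67 members tested, none called, with a median of 1.08 and of 0.61 with the trend removed. Of these 15, 2 were below 1 RPKM in both controls and passed the filter only through the p38-MAPKi libraries, and near-identical histone copies make the assignment of reads uncertain.

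Stress and metabolic pathways held few calls. Ddit3 (CHOP), a transcription factor of the integrated stress response, stood at 8.18 and 6.47 RPKM in the control and at 21.6 and 18.9 RPKM in the p38-MAPKi libraries (1.47 ± 0.20, adjusted p = 0.0397; 1.32 with the length trend removed). Impact, an inhibitor of the kinase GCN2 and also an imprinted gene, stood at 14.7 and 14.7 against 7.96 and 7.02 RPKM (-0.98 ± 0.19, adjusted p = 0.0461; -0.88). The other 18 tested genes of this response were not called, the median of the 20 was -0.17, with Atf4 at 106 and 102 against 96.5 and 102 RPKM (-0.06, adjusted p = 0.819), and no gene of the 21 of the unfolded protein response was called (median -0.10). In the sterol pathway 1 of 22 tested genes rose, Pmvk, phosphomevalonate kinase, at 132 and 105 against 260 and 243 RPKM (1.09 ± 0.19, adjusted p = 0.0456; 0.94). The median of the pathway was 0.30, and 0.47 with the length trend removed. Of the 25 antioxidant genes, with a median of 0.28, 1 rose, which was Txnip. Of the 60 lysosome and autophagy genes, with a median of -0.01, 1 fell, Atg2a (-0.98, adjusted p = 0.0479, and 0.052 without p38-MAPKi replicate 1), and of the 41 genes of mitosis and cytokinesis, with a median of -0.43, 1 fell, the cytokinetic scaffold Anln (-0.92, adjusted p = 0.0476). The 33 replication genes (median -0.17) and the 24 genes of mTOR and AMPK (median -0.20) held no call. With the length trend removed, the median was -0.24 for mitosis and cytokinesis, 0.001 for replication and 0.04 for mTOR and AMPK.

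Among the other signals, the LIF-STAT3 pathway, which sustains pluripotency, held 2 calls among 10 tested genes, with a median of -0.63, or -0.49 with the length trend removed. Socs1, a feedback inhibitor of JAK kinases, stood at 23.8 and 22.5 against 11.8 and 13 RPKM (-0.90 ± 0.18, adjusted p = 0.0465) and lay further from 0, at -1.15, with the length trend removed. Its target kinase Jak1 stood at 12 and 12.7 against 4.78 and 6.82 RPKM (-1.12 ± 0.23, adjusted p = 0.0487; -0.75). Socs3, the other main feedback gene, was at 1.33 and 1.04 against 1.05 and 3.02 RPKM, with overlapping groups (0.60, adjusted p = 0.505). Among 15 tested Wnt genes, with a median of -0.52, the receptor Fzd5 fell from 11.9 and 12.4 to 5.93 and 5.51 RPKM (-1.08 ± 0.20, adjusted p = 0.0461), and none of 10 BMP and Id genes was called (median -0.38). With the length trend removed, both the Wnt and the BMP and Id medians were -0.13.

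Outside these lists, an enzyme of DNA methylation and an enzyme of prostaglandin synthesis were among the largest changes of genes expressed above the median level. Dnmt3b, a de novo DNA methyltransferase, fell from 31.4 and 31.9 to 12 and 13.1 RPKM (-1.33 ± 0.17, adjusted p = 0.0379; -1.09 with the length trend removed). Ptgis, prostacyclin synthase, rose from 11.6 and 11.8 to 34.4 and 30.1 RPKM (1.46 ± 0.18, adjusted p = 0.0328), and its length-removed difference was 1.45. The replicates of these genes lay close together in both groups. Of the 236 tested genes named Zfp and a number, most of them KRAB zinc-finger repressors, the median was -0.36, or -0.19 with the length trend removed. Of these genes 1 rose, Zfp428 (0.98), and 3 fell. These were Zfp568, a silencer of a placental Igf2 transcript, from 25.5 and 29.7 to 8.61 and 10.1 RPKM (-1.56 ± 0.19, adjusted p = 0.0328; -1.19 with the length trend removed), Zfp609 (-1.35) and Zfp217 (-1.33). The fatty acid hydroxylase gene Cyp4f39 (-1.47), the chromatin factor Prdm2 (-1.32), Zmiz1 (-1.31) and Iqsec1 (-1.28) fell, as did the gene models Gm37988 (-1.498) and Gm43191 (-1.31), which overlap other genes. Among the rises were the small genes Bola2 (1.42), Pet100 (1.39), Tmem160 (1.37) and Spint5 (1.29) and the noncoding RNAs Zfas1 (1.45) and Gm10076 (1.60). The calls Bola2, Pet100 and Zfas1 differed between the p38-MAPKi libraries, with Zfas1 at 58.2 and 33.4 RPKM against 19.3 and 13.5 RPKM in the controls. Genes expressed below the median level held larger log2 differences, and these were named after their values were seen. Each of the following passed the filter only through the group in which it was high, so the differences are given without a test. The long noncoding RNA 2900060B14Rik stood at 0.0692 and 0.487 against 9.10 and 3.35 RPKM (4.91), Apcdd1, an inhibitor of Wnt signaling, at 2.83 and 3.98 against 0.508 and 0.697 RPKM (-2.49) and Pramel1, a leucine-rich repeat protein of the Prame family, at 3.31 and 3.94 against 0.573 and 0.513 RPKM (-2.73).

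Side by side with the neighboring times, 19 of the 233 called genes also passed at E3.5 + 4 h in the same direction and 8 at + 10 h. The share of all genes that passed at those times is not given here, so these counts do not measure how far the changes persisted. For Amotl2 the log2 differences at + 4, + 7 and + 10 h were -1.23, -1.65 and -0.38, for Ctgf -0.96, -1.27 and -0.67, and for Plk2 1.33, 0.86 and 0.85. Mt1 stood at 0.51, 1.49 and 0.10 and Dnmt3b at -0.50, -1.33 and -0.05. Txnip lay at nearly the same value throughout, 0.89, 0.97 and 0.88, and passed at each time (adjusted p = 0.0113 at + 4 h and 0.04 at + 10 h). Against medians of 0.07, -0.14 and -0.02 for all genes tested at + 7 h, the ERK feedback genes and targets had other medians. These were -0.51 at + 4 h, -0.94 at + 7 h and -0.34 at + 10 h. The differences between times were tested gene by gene, and none of these genes passed. Of 11311 genes, 1 (0.00884%) differed in effect between + 7 h and + 4 h, the histone gene Hist1h2ak, while 772 reached 0.05 without adjustment. Hist1h2ak passed the filter only through the groups that raise this contrast, as given below. Of 11400 genes, 1 (0.00877%) differed between + 7 h and + 10 h, the noncoding AC139579.1, while 2995 reached 0.05 without adjustment. AC139579.1 (chr7:102235854-102237530, within Pgap2 and on the same strand, so that shared reads are possible) stood at 11.5 and 10.7 RPKM in the control and at 2.94 and 2.56 RPKM in the p38-MAPKi libraries at + 7 h (-2.02 ± 0.22, adjusted p = 0.0328). At + 10 h it stood at 12.8 and 14.5 against 17.2 and 17.0 RPKM.

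**Figure D5:**
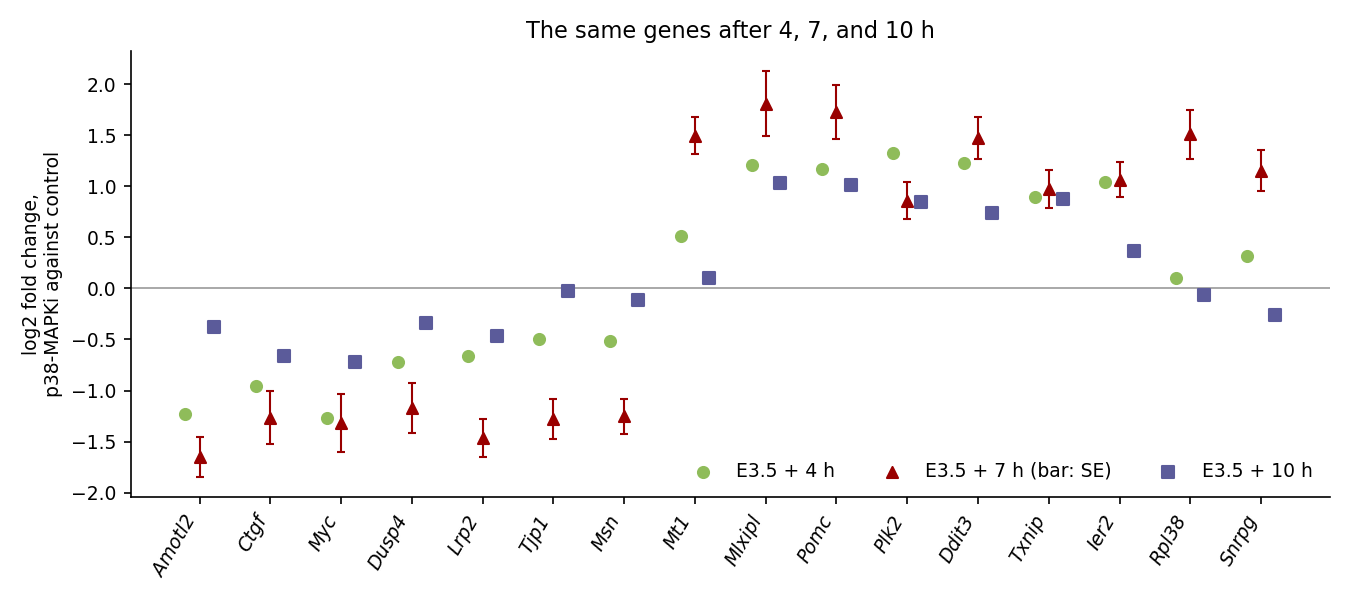
Log2 difference of p38-MAPKi against control (y axis) for selected genes (x axis), with 1 symbol for each of E3.5 + 4, + 7 and + 10 h and a bar for the SE at + 7 h. The symbols of Txnip lie close together (0.89, 0.97 and 0.88), whereas Mt1 (0.51, 1.49 and 0.10) and Amotl2 (-1.23, -1.65 and -0.38) are farthest from 0 at + 7 h.

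The libraries showed the markers of blastocysts. Cdx2, Nanog, Pou5f1, Gata6 and Krt8 were present in all 4 libraries at the levels given above. Of 11 defining markers of cumulus, oviduct and blood cells, 7 and 8 were without a read in the control and 9 and 8 in the p38-MAPKi libraries. Their summed reads were 55 and 78 against 60 and 76, and none of the 11 reached the filter. These 11 came from a list of 37, of which 7 genes were tested and none was called. Among the 7, the macrophage marker Cd68 stood at 4.6 and 4.43 against 7.43 and 3.70 RPKM and the granulosa gene Amhr2 at 4.92 and 4.34 against 5.42 and 5.47 RPKM. The others were Epcam and Sox17, which blastocysts also express, and the oocyte genes Zp3, Padi6 and H1foo. The part of other cells in the results was not tested. Of the 13 mRNAs of the mitochondrial genome none was among the tested genes.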

How the data were processed

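mRNA was selected by oligo(dT) from pools of 30 blastocysts, made into directional libraries and sequenced as single reads. According to the submitters' notes and the study's methods, reads were trimmed with Trim Galore 0.4.1, aligned to GRCm38 with HISAT2 2.0.5 and quantified over transcripts in SeqMonk. The authors deposited log2 RPKM for 34245 genes in 12 libraries (all 12 columns were used). Each gene's values are whole multiples of the value of 1 read, and a gene without a read carries the value of 0.9 read, so reads and effective transcript lengths were recovered for 34243 genes within a tolerance of 0.02 read and checked against GENCODE M21. The depths above are the library totals that the RPKM scaling implies, and the reads over genes in the table were lower in every library.

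Groups were taken from the sample titles. Genes with at least 1 RPKM in 2 of the 4 libraries at E3.5 + 7 h were fitted on the deposited log2 values with limma 3.58.1 (R 4.3.3, empirical Bayes with an intensity trend), without a pseudocount, and p-values were Benjamini-Hochberg adjusted over all genes tested, with a threshold of 0.05. All fold changes are on that log2 scale, and errors are SE over 2 libraries a group. Differences between times were tested as contrasts over 8 libraries. The length trend was removed with a loess of span 0.5 per library. Scripts were tested on simulated data. The comparison, its 29 gene lists and its tests were chosen with earlier results of these data known. Named genes were the 15 largest rises and the 15 largest falls above the median level outside the ribosome and respiration lists, the called members of the other lists except the Zfp list, the anchor genes of each list, the 3 highest and 3 lowest members of each list and the genes past a test between times, which came to 293, and the text describes a part of them. Some of these genes are not reported here. Promoters came from RefSeq (GRCm38.p6), and 18 alternative settings were run.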

Additional observations from a re-analysis of the deposited data

Results flagged for a closer look

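The effect of p38-MAPKi on the histone gene Hist1h2ak differed between times, by the limma contrast of the effect at + 7 h minus that at + 4 h (log2 difference 5.50 ± 0.69, adjusted p = 0.0393). It had 2 and 3 reads in the control and 12 and 15 reads in the p38-MAPKi libraries at + 7 h, 28 and 20 against 5 and 7 at + 4 h, and 6 and 15 against 7 and 2 at + 10 h. These are few reads of a gene (chr13:21753435-21753827, GRCm38) with near-identical copies, so their assignment is uncertain. Among the 8 libraries of this contrast, Hist1h2ak reached 1 RPKM only in 2 pairs. These were the controls at + 4 h (4.17 and 2.79) and the p38-MAPKi libraries at + 7 h (2.72 and 2.19). Both pairs raise the contrast, so the gene passed the filter only through them and the adjusted p is no independent support. The effect on AC139579.1, a noncoding gene within Pgap2, differed between + 7 h and + 10 h (-2.34 ± 0.19, adjusted p = 0.0152). It had 147 and 151 reads in the control and 20 and 27 reads in the p38-MAPKi libraries at + 7 h, against 148 and 205 and 229 and 252 at + 10 h, and both p38-MAPKi libraries at + 7 h lay below all other libraries. The host gene Pgap2 stood at -0.54 at + 7 h (adjusted p = 0.187) on the log2 scale.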

How the results depend on the processing

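Against 102 genes called higher and 131 called lower, no gene was called in either direction without the intensity trend, with median centring, with no filter, with the length trend removed and with thinned libraries, and 7 and 5 were called after quantile normalization. More genes were called with at least 10 RPKM in 2 libraries (458 and 489), a pseudocount of 0.1 (149 and 199) or 5 (281 and 366), all 12 libraries in 1 fit (866 and 1720), voom on the recovered reads (539 and 1190), an adjusted p under 0.1 (663 and 1010) and library weights (156 and 222), an alternative chosen after seeing the data. Leaving out 1 library gave 0 to 902 genes higher and 0 to 2094 lower, with 0 and 0 without control replicate 2, 301 and 106 without control replicate 1, 221 and 364 without p38-MAPKi replicate 1, and 902 and 2094 without p38-MAPKi replicate 2. In such fits the lone library was taken to vary like the other group. With the replicate number as a block, 827 genes were higher and 1196 lower, and 2 and 610 genes passed the differences from + 4 h and + 10 h. The deviations of same-numbered libraries correlated with r = 0.162 over 10940 genes, and the labels name nothing that a number shares, so the block was not used. The 1 gene called between + 7 h and + 4 h was lost (0) without the trend, with median centring, with the length trend removed and with all 12 libraries in 1 fit, and leaving out 1 library gave 0 to 294. The 1 gene called between + 7 h and + 10 h was lost (0) with median centring and also without the trend, where 1 other gene passed, and leaving out 1 library gave 0 to 2918. The cause was not tested. Signs reversed in the following named genes and lists, among others, and none of the genes given here was called. With the length trend removed the median of metallothioneins and zinc went from -0.27 to 0.07. That of mTOR and AMPK went from -0.20 to 0.04. The median of the glucose-sensing group went from -0.10 to 0.09 with median centring. With median centring Actb was at 0.0902, Aqp3 at 0.0113, Atf4 at 0.132, Cldn4 at 0.0481 and Nanog at 0.107, with quantile normalization Krt8 was at -0.341 and Pou5f1 at -0.211, and with the length trend removed Krt8 was at -0.0479 and Cd68 at -0.0288. Leaving out 1 library moved Cldn4 between -0.303 and 0.00783, Krt8 between -0.172 and 0.341, Mapkapk2 between -0.00395 and 0.24, Nanog between -0.204 and 0.0278, Socs3 between -0.165 and 1.36, Cd68 between -0.288 and 0.72, Yap1 between -0.12 and 0.168, the median of the TE keratins and surface genes between -0.437 and 0.0123 and that of the small actin regulators between -0.0476 and 0.359. Of the 527 alternative values of list medians, 386 moved by less than the spread between replicates. With 361 reads at the median tested gene in p38-MAPKi replicate 1, against 608 to 883 in the other 3 libraries, genes near the filter are the least certain.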
